A study of Mus musculus with 9 samples.

Results

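RNA of mouse male germ cells lacking ClpX was compared with RNA of male germ cells lacking ClpP. The 6 libraries compared were the 3 from ClpX conditional knockouts (ClpX cKO 1 to 3) and the 3 from ClpP conditional knockouts (ClpP cKO 1 to 3), out of 9 libraries in all. The other 3, wild-type controls (Control 1 to 3), served as a reference level and helped to estimate the spread. All 9 carry the time label PD 35, which reads as postnatal day 35, and are titled spermatocytes. Both knockouts used Stra8-Cre, a recombinase driven by the promoter of a gene that germ cells switch on before meiosis. It is meant to remove the gene in germ cells only, so that supporting cells of the testis keep both proteins. Neither the proteins nor the cells in which Cre acted were measured here. The genotype label of the controls is WT, and whether they carried Cre or floxed alleles is not given. Neither the isolation of the cells nor the animals behind each replicate is stated, so p-values measure the spread between these libraries, which may be technical.

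ClpP and ClpX form one machine of the mitochondrial matrix. ClpX is a ring-shaped ATPase that grips a folded protein, unfolds it and threads it into the barrel of ClpP, the protease that cuts it up. ClpX also acts without ClpP as an unfolding chaperone, for example on the first enzyme of haem synthesis, and ClpP depends on ClpX for folded substrates. Known roles of the pair in mammals include maturation of the mitochondrial ribosome and disposal of damaged proteins of complex I. The comparison of both knockouts asks where the RNA of germ cells differs between loss of the unfoldase and loss of the protease.

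Levels are FPKM, reads per kilobase of gene and per 1e6 reads, as scaled by the authors. A gene was tested if its mean FPKM over the 9 libraries was at least 1, which kept 17266 of 54532 genes, 12827 of them protein-coding. Differences are ClpX cKO minus ClpP cKO on the scale log2(FPKM + 1), a scale that understates the change of genes at low FPKM. A gene was called when limma's moderated test gave a Benjamini-Hochberg adjusted p under 0.05 over all genes tested. Gene reads per knockout library were between 14846684 and 16580314. Beside the calls stands a plain count with no model, of genes whose 3 ClpX cKO libraries all lay above, or all below, the 3 ClpP cKO libraries.

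ClpX cKO 1 stood apart from the other 2 ClpX cKO libraries and lay close to the ClpP cKO libraries. On the first principal component of the 6 libraries, which held 51.0% of their variance, the ClpP cKO libraries lay at -31.7, -14.6 and -19.7, ClpX cKO 1 at -2.01, and ClpX cKO 2 and 3 at 31.4 and 36.5. The median absolute log2 distance of ClpX cKO 1 from the ClpP cKO libraries was 0.139 to 0.149, against 0.205 from ClpX cKO 2 and 0.248 from ClpX cKO 3. Control 3 also lay apart from its group, towards the knockouts, at -39.2 on the first component of all 9 libraries against -55.8 and -52.4. With all libraries 18 genes were called, 0.104% of those tested, of which 8 were higher (0.0463%) and 10 lower (0.0579%) in ClpX cKO. Without ClpX cKO 1 the same test called 4758 genes, 2060 higher (11.9%) and 2698 lower (15.6%), and all 18 were among them. Results are therefore given with and without this library. ClpX cKO 1 was singled out from these same values, and leaving it out narrows the spread that the test uses. Adjusted p-values and calls without it depend on that choice, tend to be too favourable, and are given as a description.

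The held-out library could be placed for each of these 4758 genes on a line from the ClpP cKO mean, set to 0%, to the mean of ClpX cKO 2 and 3, set to 100%. The ClpP cKO libraries and ClpX cKO 2 and 3 enter both the call and this line. A held-out library is therefore likely to fall short of 100% through the selection alone. The median position of ClpX cKO 1 was 26.2%, with quartiles of 4.86% and 46.4%. It lay on the ClpX side of the ClpP cKO mean for 79.4% of the genes and past the midpoint for 20.8%. For the 18 genes called with all libraries the position was 68.3% to 133%, with a median of 83.7%. A gene could hardly be called with all libraries unless ClpX cKO 1 lay near ClpX cKO 2 and 3, so the position of these 18 is set by their selection and is given as a description. The histogram of these positions shows ClpX cKO 1 nearer to the ClpP cKO mean than to that of ClpX cKO 2 and 3 for most of these 4758 genes. How far the selection accounts for this was not tested.

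**Figure D1:**
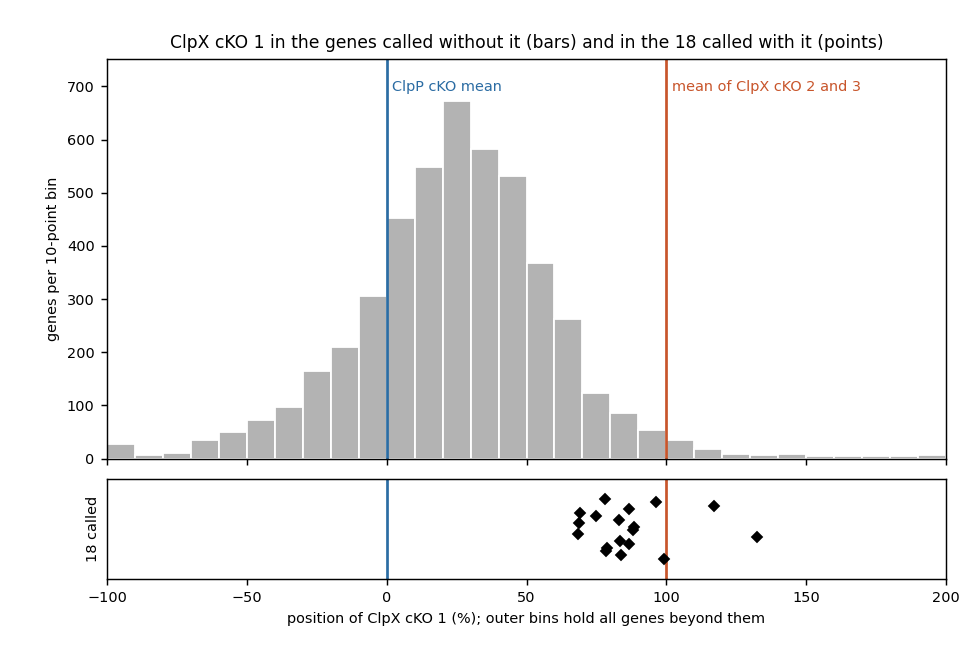
Position of ClpX cKO 1 (horizontal axis, %) between the mean of the 3 ClpP cKO libraries (0, blue line) and the mean of ClpX cKO 2 and 3 (100, orange line) on the log2(FPKM + 1) scale. Bars count the 4758 genes called without ClpX cKO 1, whose median position was 26.2%, and black points are the 18 genes called with all libraries, all at 68.3% or more; the height of a point carries no value.

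The 18 calls were the 2 targeted genes, 1 nuclear subunit of the ATP synthase, 4 genes of the mitochondrial genome and 1 pseudogene copied from it, 3 other protein-coding genes, and 7 other non-coding RNAs or pseudogenes. In 13 of the 18 the fitted difference was at least 2-fold. An unadjusted p under 0.05 was reached by 4801 genes, 2238 higher (13.0%) and 2563 lower (14.8%). The 3 ClpX cKO libraries lay above all ClpP cKO libraries for 2580 genes (14.9%) and below them for 2577 genes (14.9%). Among protein-coding genes these shares were 18.5% above and 13.6% below. The median difference was -0.01 over all tested genes and 0.03 over protein-coding genes. In 11 of the 18 the ClpP cKO libraries already lay beyond the control range on the side of ClpX cKO, in 6 they overlapped the controls, and in Clpp alone they lay on the other side.

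**Figure D2:**
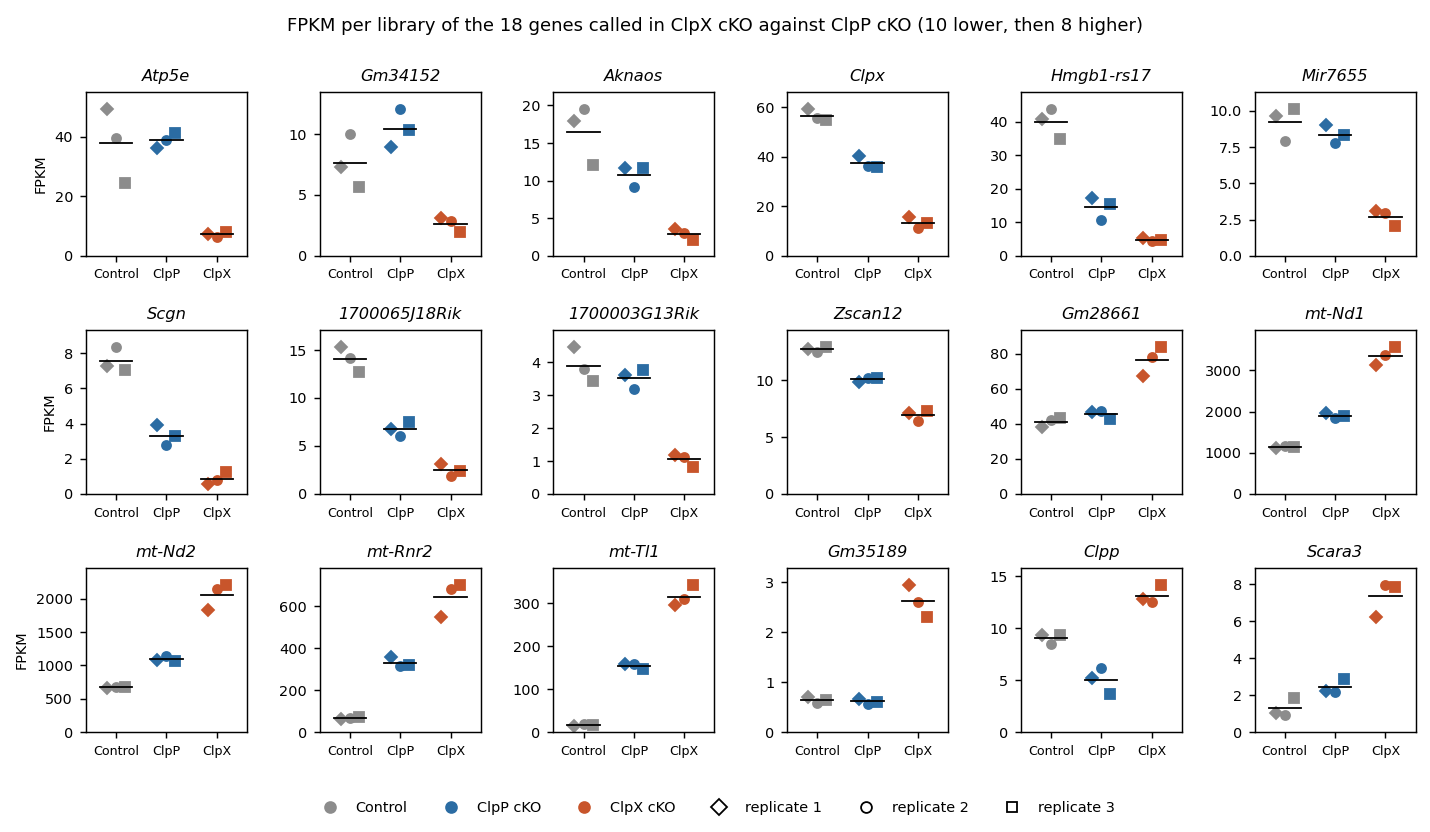
FPKM (vertical axis, linear from 0) of the 18 called genes in the 3 control, 3 ClpP cKO and 3 ClpX cKO libraries, with marker shapes for the replicate number and black bars for the mean of 3 libraries. In each panel the ClpX cKO libraries do not overlap the ClpP cKO libraries.

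The targeted genes matched the labels. Clpx stood at 59.3, 55.7 and 54.7 FPKM in the controls, 40.3, 36.2 and 36.0 in ClpP cKO and 15.6, 11.3 and 13.2 in ClpX cKO. Its ClpX cKO mean was 0.237 times that of the controls, and the difference from ClpP cKO was -1.43 (SE 0.11, adjusted p = 0.0080). Clpx was thus also below the control range in the libraries that lack ClpP. Clpp stood at 9.36, 8.46 and 9.36 FPKM in the controls, 5.16, 6.15 and 3.69 in ClpP cKO and 12.8, 12.5 and 14.1 in ClpX cKO. The ClpP cKO mean was 0.552 times and the ClpX cKO mean 1.45 times that of the controls, and the difference between the knockouts was 1.25 (SE 0.14, adjusted p = 0.030). A level over the whole gene does not show which exon was removed, and RNA of cells that Cre did not reach is part of it. The antisense gene Gm16218 overlaps exons of Clpx, and the strand setting of the counting is not given.

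Atp5e, which encodes the epsilon subunit of the ATP synthase stalk, had the largest fitted difference of the 18. It was measured at 36.4, 38.9 and 41.2 FPKM in ClpP cKO, and ClpX cKO had 7.27, 6.38 and 8.08 in ClpX cKO, against 49.4, 39.6 and 24.5 in the controls. The difference was -2.28 (95% interval -2.77 to -1.79, adjusted p = 0.015), and the ClpX cKO mean was 18.7% of the ClpP cKO mean. ClpX cKO 1 lay at 99.4% of the way to ClpX cKO 2 and 3. The gene lies on chromosome 2 at chr2:174461072-174464105 (GRCm38, minus strand). Of the other 15 nuclear ATP synthase subunits and regulators tested none was called by limma, with 1 at an unadjusted p under 0.05 and 0 by limma voom on recovered reads. The list's median was 0.10, with 3 members above and, Atp5e itself, 1 below all ClpP cKO libraries. Atp5g2, a subunit of the membrane ring, stood at 20.3, 21.6 and 19.4 FPKM in ClpP cKO and 23.0, 28.4 and 27.3 in ClpX cKO (0.34, adjusted p = 0.10).

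RNA of the mitochondrial genome was higher in ClpX cKO. This genome is copied into long transcripts that are cut at the tRNAs that lie between the other genes, and it encodes 2 ribosomal RNAs, 22 tRNAs and 13 proteins, all of them subunits of the respiratory chain and ATP synthase. The 4 called genes sit together at the start of the heavy-strand transcript: mt-Rnr2, the large ribosomal RNA, mt-Tl1, a leucine tRNA, and mt-Nd1 and mt-Nd2, subunits of complex I. The first 3 abut with no base between them, which is shown here because reads that cross these borders belong to more than 1 called gene. The run below covers MT:2636-2790 of GRCm38 (plus strand, from GENCODE transcripts), with the 75 bases of mt-Tl1 in capitals, the last 40 bases of mt-Rnr2 before it and the first 40 of mt-Nd1 after it.
mt-Rnr2 to mt-Nd1: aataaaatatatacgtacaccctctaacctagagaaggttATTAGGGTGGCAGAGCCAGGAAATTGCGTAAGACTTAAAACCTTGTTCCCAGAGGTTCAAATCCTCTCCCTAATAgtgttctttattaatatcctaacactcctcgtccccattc

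Along that block, mt-Rnr2 (MT:1094-2675) stood at 357, 315 and 318 FPKM in ClpP cKO and 551, 685 and 699.9 in ClpX cKO, with 63.3, 67.1 and 74.7 in the controls. The difference was 0.96 (SE 0.11, adjusted p = 0.031). mt-Tl1 stood at 158, 159 and 146 FPKM in ClpP cKO, 295, 311 and 341 in ClpX cKO and 14.0, 18.3 and 16.6 in the controls, a difference of 1.02 (SE 0.10, adjusted p = 0.015). Of these 4 genes it had the widest step from controls to ClpP cKO, 9.48 times the control mean. mt-Nd1 stood at 1952, 1841 and 1891 FPKM in ClpP cKO and 3122, 3364 and 3557 in ClpX cKO, with 1113, 1162 and 1132 in the controls (0.82, SE 0.11, adjusted p = 0.039). mt-Nd2 stood at 1082, 1145 and 1068 FPKM in ClpP cKO and 1831, 2151 and 2200 in ClpX cKO, with 660, 683 and 671 in the controls (0.90, SE 0.10, adjusted p = 0.030). In all 4 the 3 groups did not overlap one another, in the order control, ClpP cKO, ClpX cKO. mt-Nd1 held the same rank among genes in all knockout libraries, so that its difference was 0 under quantile normalization, which replaces values by their ranks.

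All 13 mitochondrial mRNAs had each ClpX cKO library above each ClpP cKO library, and their median difference was 0.83. Of them 2 were called, mt-Nd1 and mt-Nd2, while 13 had an unadjusted p under 0.05, and limma voom called 11. Without ClpX cKO 1 the test called 11, all higher, with a median of 0.87, and the median position of the held-out ClpX cKO 1 in these was 66.3%. The largest mRNA, by FPKM, was mt-Co1, the catalytic subunit of cytochrome oxidase, at 3872, 3991 and 3435 FPKM in ClpP cKO and 4629, 6579 and 6339 in ClpX cKO (0.62, adjusted p = 0.093). mt-Cytb, the cytochrome of complex III, stood at 2018, 2307 and 2062 FPKM in ClpP cKO and 3360, 4295 and 4188 in ClpX cKO (0.88, adjusted p = 0.067). mt-Nd6, the 1 mRNA coded on the light strand, stood at 516, 713 and 629 FPKM in ClpP cKO and 952, 1152 and 1179 in ClpX cKO (0.83, adjusted p = 0.081). The difference of mt-Nd6 thus lay among those of the heavy-strand mRNAs in size. The strand setting of the counting is not given, so reads of heavy-strand RNA from this locus may be part of the mt-Nd6 values. The other complex I subunits had differences of 0.75 (mt-Nd4, adjusted p = 0.050), 0.73 (mt-Nd5), 0.91 (mt-Nd3) and 1.10 (mt-Nd4l). Those of mt-Co2, mt-Co3, mt-Atp6 and mt-Atp8 were 0.68, 0.51, 0.83 and 0.87. mt-Atp8 rests on few FPKM, from 0.57 to 0.95 in ClpP cKO and from 1.68 to 2.33 in ClpX cKO. Its control mean was 0.80 FPKM, so it passed the filter only through ClpX cKO, which favoured its place among the 13.

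Of the 2 ribosomal RNAs and 22 tRNAs of the genome 19 passed the filter, both rRNAs and 17 tRNAs, and all 19 had a positive difference, with a median of 0.79. The ClpX cKO libraries lay above all ClpP cKO libraries for 8 of them and below for none. Of the 8, 2 were called, mt-Rnr2 and mt-Tl1, and limma voom called 2 as well. mt-Rnr1, the small ribosomal RNA at the very start of the transcript, was not called with all libraries. Without ClpX cKO 1 it was called by limma, with a difference of 0.61 (adjusted p = 0.016). Whether mt-Rnr1 and mt-Rnr2 differ from each other was not tested. mt-Rnr1 stood at 107, 83.7 and 88.0 FPKM in ClpP cKO and 96.1, 141 and 142 in ClpX cKO. With all libraries the groups thus overlapped through ClpX cKO 1 (0.43, SE 0.17, adjusted p = 0.15). mt-Th, a histidine tRNA, stood at 7.78, 15.3 and 10.8 FPKM in ClpP cKO and 18.6, 30.7 and 34.1 in ClpX cKO (1.23, adjusted p = 0.081). The tRNA values come from libraries made for messenger RNA, and 7 of the 17 tRNAs had at most 19 reads in any knockout library, so that their intervals are wide in the plot of the mitochondrial genes. Without ClpX cKO 1, 8 of the 19 were called, and without ClpX cKO 3 the median was 0.53. The share of gene reads from the mitochondrial chromosome was 1.53%, 1.63% and 1.48% in ClpP cKO and 2.23%, 2.94% and 2.90% in ClpX cKO, with 0.833% to 0.956% in the controls.

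**Figure D3:**
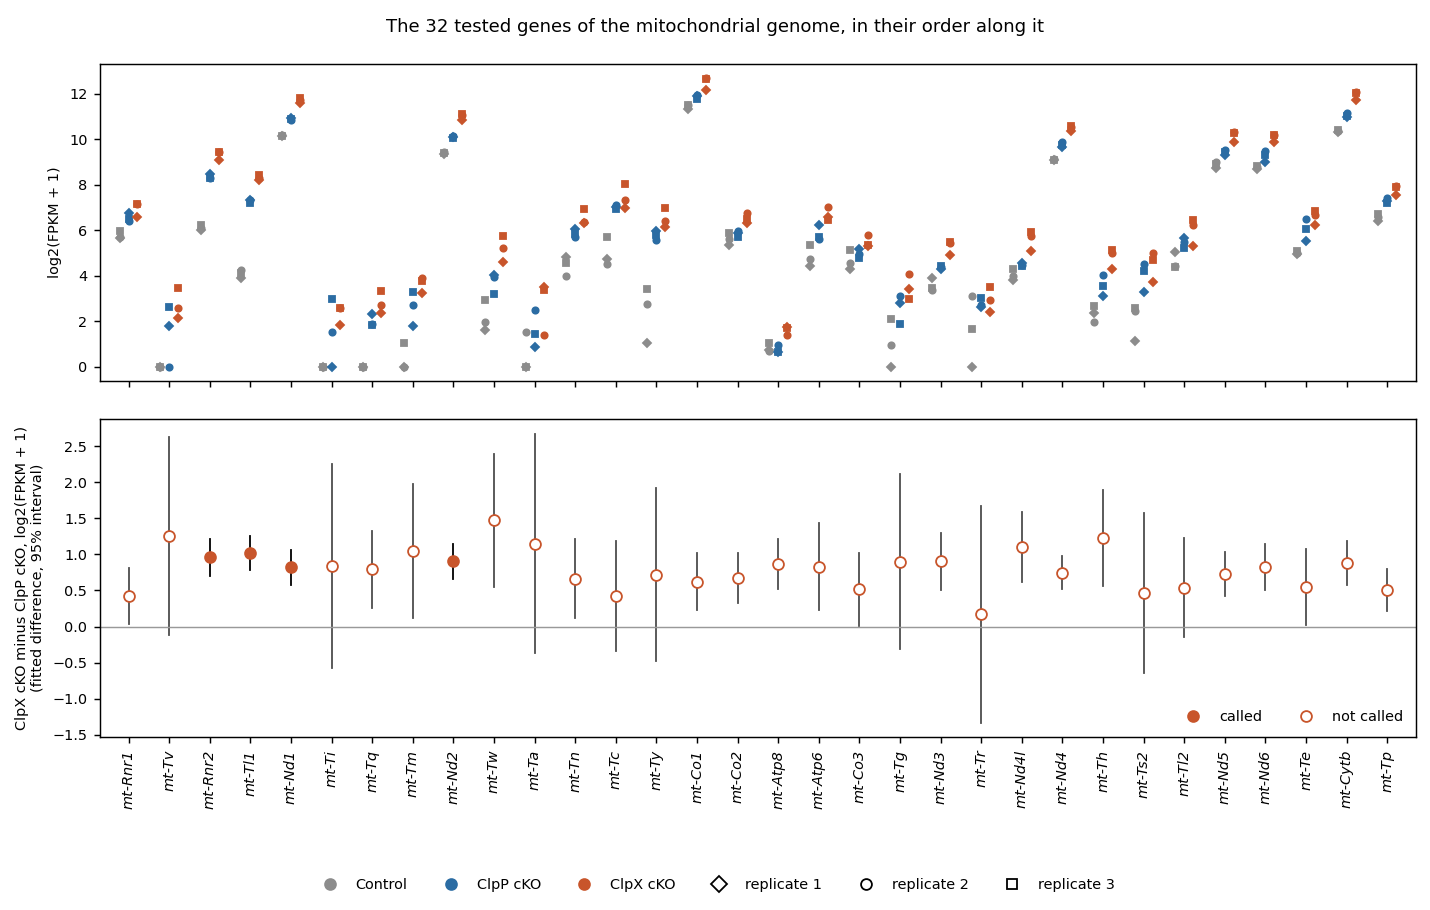
The 32 tested genes of the mitochondrial genome in their order along it, with log2(FPKM + 1) of each library on top (grey control, blue ClpP cKO, orange ClpX cKO) and the fitted difference ClpX cKO minus ClpP cKO with its 95% interval below, filled where called. All 32 differences lie above 0, and the 4 called genes are mt-Rnr2, mt-Tl1, mt-Nd1 and mt-Nd2.

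A nuclear copy shares its reads with the mitochondrial gene. Of the 13 mitochondrial mRNAs 5 have a nuclear pseudogene that is at least 99% identical over at least 90% of their length in GENCODE transcripts, and all 5 copies lie on chromosome 1. They are mt-Co2, mt-Atp6, mt-Co3, mt-Nd3 and mt-Nd4l, and mt-Nd4 has an identical copy of 876 of its bases. Only annotated transcripts were searched, so an unannotated copy of another mRNA, such as mt-Atp8, would be missed. Gm28661, the 1 pseudogene of this kind that was called, is identical to mt-Co2 over all 681 bases of its transcript (chr1:24614885-24615565, GRCm38, minus strand). It stood at 47.0, 47.3 and 42.4 FPKM in ClpP cKO and 67.5, 77.8 and 83.6 in ClpX cKO, with 38.3, 42.3 and 43.2 in the controls (0.73, SE 0.09, adjusted p = 0.039). mt-Co2 stood at 57.5, 61.5 and 51.9 FPKM in ClpP cKO and 80.1, 107 and 89.3 in ClpX cKO. Reads of these sequences cannot be assigned to either place, so the call of Gm28661 and the levels of these mRNAs are uncertain. The first 60 bases of both are shown to make the identity visible.
mt-Co2: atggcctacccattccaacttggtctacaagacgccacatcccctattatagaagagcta
Gm28661: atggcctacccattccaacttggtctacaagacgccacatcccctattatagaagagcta

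Scgn, Zscan12 and Scara3 were the other called protein-coding genes. Scgn encodes secretagogin, a calcium-binding protein, and stood at 3.90, 2.78 and 3.27 FPKM in ClpP cKO, 0.55, 0.776 and 1.23 in ClpX cKO and 7.25, 8.33 and 7.07 in the controls. Its difference was -1.23 (SE 0.15, adjusted p = 0.034), and ClpX cKO 1 lay past ClpX cKO 2 and 3, at 133%. Its exons overlap those of Gm11339. Zscan12, a zinc finger gene, had the smallest difference of the 18, with 9.83, 10.2 and 10.2 FPKM in ClpP cKO and 7.14, 6.42 and 7.25 in ClpX cKO (-0.48, SE 0.06, adjusted p = 0.045). Among other settings, its call was lost with the 6 knockout libraries alone, under median-of-ratios scaling and when libraries were scaled to their own gene reads. Of the fits that left out 1 library, 2 called Zscan12 and 7 called Clpx. None of the 18 calls held in all of those fits. Scara3, a scavenger receptor gene, stood at 2.21, 2.18 and 2.90 FPKM in ClpP cKO, 6.22, 7.94 and 7.89 in ClpX cKO and 1.05, 0.95 and 1.88 in the controls (1.28, SE 0.17, adjusted p = 0.042).

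The remaining 7 calls were of RNAs that encode no protein. Hmgb1-rs17, a pseudogene of the chromatin protein gene Hmgb1, stood at 17.3, 10.8 and 15.4 FPKM in ClpP cKO and 5.37, 4.47 and 4.70 in ClpX cKO, with 41.0, 43.8 and 34.8 in the controls (-1.39, SE 0.16). Its reads may be shared with other Hmgb1 copies. Gm34152 and 1700065J18Rik, long intergenic RNAs, had differences of -1.66 and -1.17. Aknaos (-1.60) lies antisense to Akna, and 1700003G13Rik (-1.14) antisense to Tmprss13, with exons that overlap. The counting is not stated to use strand, so reads of an antisense RNA and its partner cannot be told apart. Akna itself stood at 11.4, 9.20 and 10.6 FPKM in ClpP cKO and 8.95, 6.38 and 6.46 in ClpX cKO (-0.47, adjusted p = 0.10). Gm35189, a long intergenic RNA on chromosome 12, stood at 0.66, 0.57 and 0.61 FPKM in ClpP cKO and 2.93, 2.61 and 2.30 in ClpX cKO, from 7 to 39 reads per library (1.16, SE 0.11). The control mean of Gm35189 was 0.65 FPKM, so it passed the filter only through ClpX cKO, which favoured a call as higher.

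Mir7655 rests on 2 to 9 reads per library. The annotated hairpin is 58 bases long and lies in an intron of Mllt10 on the same strand (chr2:18057846-18057903, plus strand), so that its reads may be those of the unspliced host RNA. Mir7655 stood at 8.99, 7.76 and 8.31 FPKM in ClpP cKO and 3.07, 2.95 and 2.02 in ClpX cKO, and its call was lost under limma voom. Mllt10 stood at 72.7, 79.3 and 71.7 FPKM in ClpP cKO and 63.7, 71.0 and 58.2 in ClpX cKO (-0.21, adjusted p = 0.14). The hairpin is printed as RefSeq gives it (GRCm38.p6), with both mature arms in capitals, to show how short the counted feature is.
Mir7655: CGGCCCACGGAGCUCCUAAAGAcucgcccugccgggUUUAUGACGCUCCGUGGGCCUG

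Gene lists were described by their counts, beside the shares over all genes given above. A list's level in a library is the mean log2(FPKM + 1) of its tested members minus the mean of the controls. Outside the mitochondrial lists and Atp5e none of the listed genes was called with all libraries. In bulk RNA, fewer cells of a type and less RNA per cell cannot be told apart.

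Genes of elongating spermatids, the cells that pack their DNA with protamines and build the sperm tail, were lower in ClpX cKO once ClpX cKO 1 was left out. All 23 tested members had a negative difference with a median of -1.11, and the ClpX cKO libraries lay below all ClpP cKO libraries for 21 of 23. With all libraries 0 were called by limma, with the lowest adjusted p at 0.081, while all 23 had an unadjusted p under 0.05 and limma voom called 18 lower. Over all genes voom called 421 higher (2.44%) and 407 lower (2.36%). Without ClpX cKO 1 all 23 were called lower, with a median of -1.36. The level of the list was -1.06, -1.41 and -1.20 in ClpP cKO and -1.92, -2.62 and -2.52 in ClpX cKO, with 0.27, 0.29 and -0.56 in the controls. Here ClpX cKO 1 lay about midway, its median position over the 23 genes being 49.5%.

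Among these genes Tnp2, a transition protein that bridges histones and protamines, stood at 1554, 1379 and 1702 FPKM in ClpP cKO and 628, 423 and 446 in ClpX cKO (-1.65, SE 0.28). Prm1, a protamine, stood at 1097, 874 and 1063 FPKM in ClpP cKO, against 396, 291 and 301 in ClpX cKO (-1.62, SE 0.35). Odf1, of the outer dense fibres of the tail, stood at 365, 280 and 304 FPKM in ClpP cKO and 227, 128 and 140 in ClpX cKO (-0.97, SE 0.27). Akap4, of the fibrous sheath, stood at 214, 159 and 171 FPKM in ClpP cKO and 121, 67.0 and 71.8 in ClpX cKO (-1.10). In each of the 4 the groups did not overlap and ClpX cKO 1 was the highest ClpX cKO library.

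Genes of round spermatids, the earlier haploid cells that form the acrosome, were all 22 negative with a median of -0.40, but their libraries overlapped in 19 of 22. None was called by limma with all libraries, 6 had an unadjusted p under 0.05 and voom called 1, yet 21 were called lower without ClpX cKO 1. In those 21 ClpX cKO 1 lay at a median of -9.03%, that is level with ClpP cKO. Acrv1, of the acrosomal matrix, stood at 32.2, 23.8 and 26.6 FPKM in ClpP cKO and 30.8, 14.5 and 16.8 in ClpX cKO (-0.46, adjusted p = 0.24). The kinase gene Tssk2 stood at 143, 100.7 and 125 FPKM in ClpP cKO and 93.8, 55.4 and 56.5 in ClpX cKO (-0.86, adjusted p = 0.089). ClpX cKO 1 therefore lay apart from ClpP cKO in genes of the late spermatid and not in most genes of the round spermatid. The difference between the 2 lists was not tested.

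Genes of the flagellum and axoneme had a median of -0.28, with 12 of 29 below all ClpP cKO libraries, 17 with an unadjusted p under 0.05 and 2 called by voom. Without ClpX cKO 1, 25 of 29 were called lower. Cfap70, an axonemal protein gene, stood at 60.5, 63.5 and 59.5 FPKM in ClpP cKO and 52.9, 45.6 and 41.6 in ClpX cKO (-0.39, SE 0.09, adjusted p = 0.081). Regulators of the spermatid programme had a median of -0.27, with 3 of 12 below all ClpP cKO libraries and 8 called lower without ClpX cKO 1. Fhl5, an activator partner of the transcription factor CREM, stood at 81.7, 53.6 and 66.4 FPKM in ClpP cKO and 49.7, 26.9 and 29.5 in ClpX cKO (-0.94, adjusted p = 0.086).

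Lists of earlier germ cell stages had smaller medians, and a test between the lists was not run. Pachytene and diplotene genes had a median of -0.13, with 5 of 20 below all ClpP cKO libraries. This median was -0.23 without ClpX cKO 1, with 6 called lower and 1 higher. Genes of early meiotic prophase had a median of -0.04, with 3 of 28 above and 6 below, and it turned to 0.02 without ClpX cKO 1. Spermatogonial genes had a median of 0.27 and lay above all ClpP cKO libraries in 8 of 18 cases, with 9 called higher and 1 lower without ClpX cKO 1. Kit, the receptor of differentiating spermatogonia, stood at 6.88, 6.39 and 6.04 FPKM in ClpP cKO, 8.68, 8.42 and 8.79 in ClpX cKO (0.37, adjusted p = 0.081). Genes of the piRNA pathway, which silences transposons in germ cells, had a median of -0.15, with 5 of 20 below and 0 above, and without ClpX cKO 1 the test called 5 lower and 0 higher. Gtsf1, a cofactor of PIWI proteins, stood at 101.5, 87.8 and 93.2 FPKM in ClpP cKO and 80.2, 67.4 and 64.6 in ClpX cKO (-0.41, adjusted p = 0.081).

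Markers of Sertoli cells lay on the opposite side from spermatid genes. All 24 Sertoli cell genes, of the somatic cells that nurse the germ cells, had a positive difference with a median of 0.38, and 13 lay above all ClpP cKO libraries. None was called by limma with all libraries, 22 had an unadjusted p under 0.05, voom called 5 higher, and without ClpX cKO 1 the test called 20, all higher. The level of the list was 0.40, 0.58 and 0.61 in ClpP cKO and 0.70, 0.92 and 1.15 in ClpX cKO, with -0.03 to 0.02 in the controls. Clu, a secreted chaperone of Sertoli cells, stood at 370, 384 and 378 FPKM in ClpP cKO and 461, 517 and 611 in ClpX cKO (0.48, SE 0.10, adjusted p = 0.081). Sox9, their defining transcription factor, stood at 8.18, 9.42 and 8.72 FPKM in ClpP cKO and 10.6, 13.4 and 14.8 in ClpX cKO (0.50, adjusted p = 0.081). Libraries labelled as germ cells thus held RNA of Sertoli genes in both knockouts, and its part in the differences between them was not tested. The control level is near 0 by its definition and does not show how much of this RNA the controls held.

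Other somatic lists were less uniform. Peritubular and stromal genes had a median of 0.39, with 4 of 13 above and 1 below, and 0.59 without ClpX cKO 1. Leydig cell genes overlapped in all 11 cases, and erythroid genes in all 4. Of 17 macrophage and immune genes 10 lay above and 4 below all ClpP cKO libraries. Those above included C1qc, of the complement complex C1, at 5.58, 5.19 and 3.93 FPKM in ClpP cKO and 9.22, 7.63 and 9.07 in ClpX cKO (0.72, SE 0.12, adjusted p = 0.081). Those below were Aif1 and the MHC class II genes H2-Aa, H2-Ab1 and H2-Eb1, which present antigen. H2-Eb1 stood at 5.97, 4.94 and 3.46 FPKM in ClpP cKO and 1.15, 2.61 and 1.09 in ClpX cKO (-1.17, SE 0.28, adjusted p = 0.081). Both directions appear in ClpX cKO 1, whose median position over the 9 members called without it was 70.8%.

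**Figure D4:**
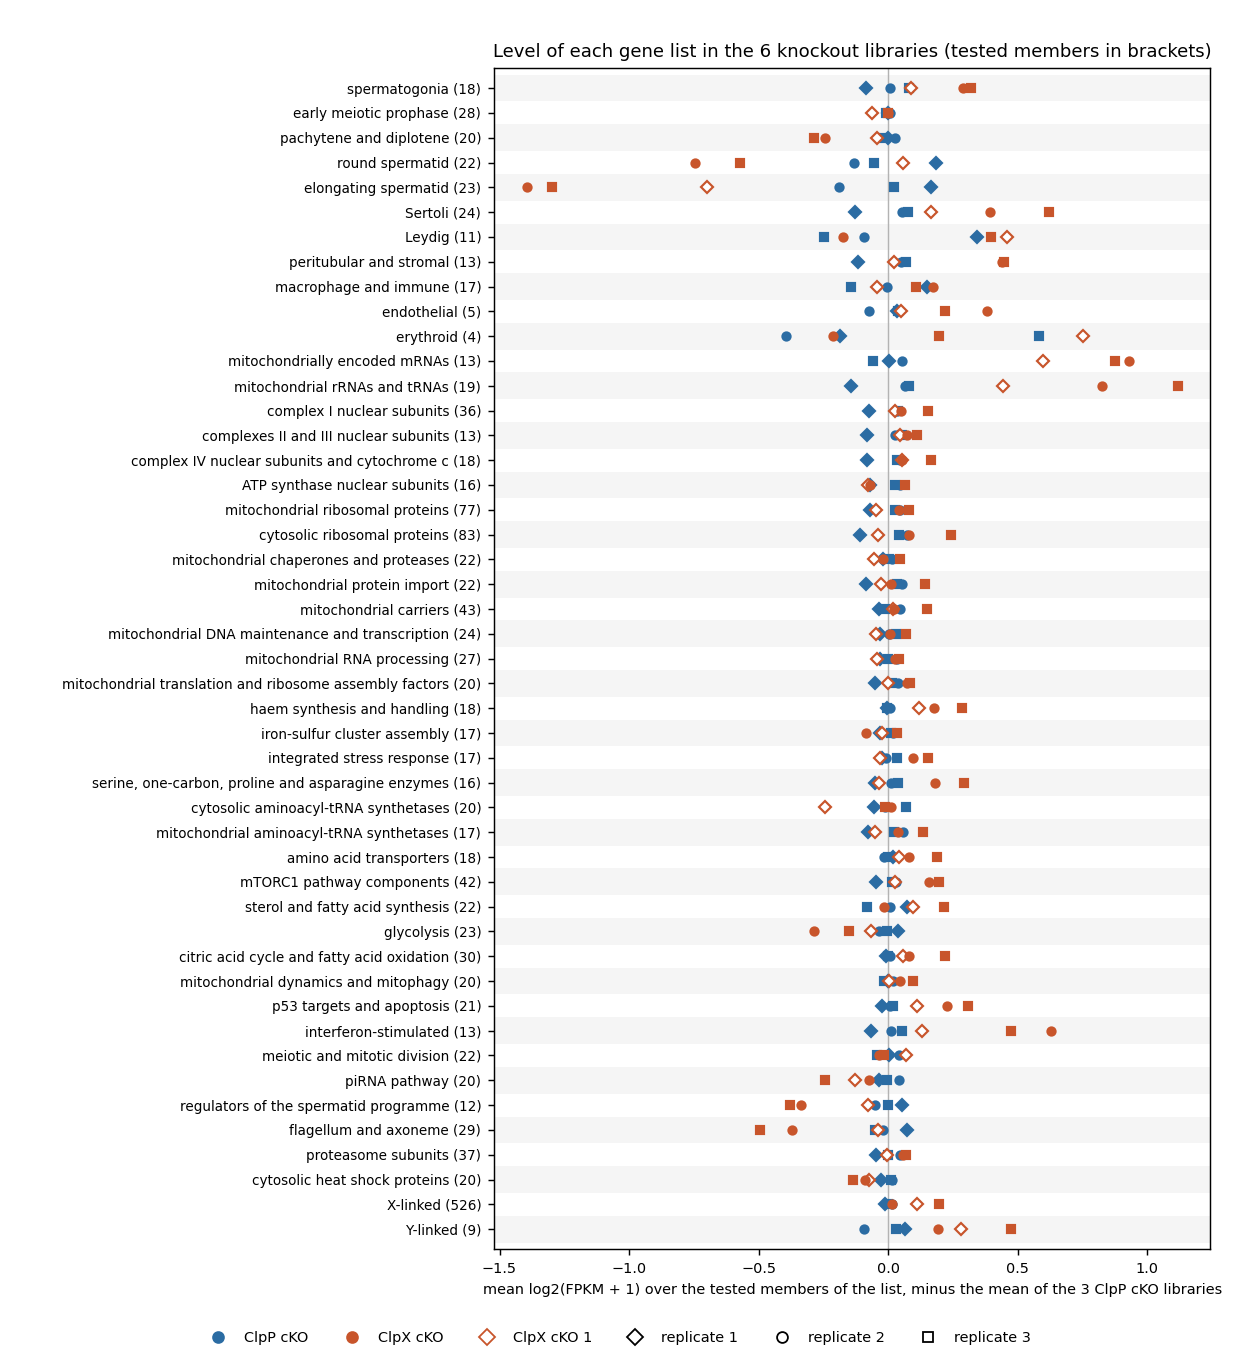
Level of the 47 gene lists in the 6 knockout libraries, as the mean log2(FPKM + 1) of the tested members minus the mean of the 3 ClpP cKO libraries (horizontal axis), with ClpP cKO in blue, ClpX cKO in orange, shapes for the replicate and an open diamond for ClpX cKO 1. By the mean of the ClpX cKO libraries the elongating spermatid list lies furthest to the left and the 2 mitochondrial RNA lists furthest to the right, and in these 3 ClpX cKO 1 lies nearest to ClpP cKO.

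Nuclear genes for mitochondrial proteins had medians near 0, unlike the RNA of the mitochondrial genome. The median was 0.07 for 36 complex I subunits, with 5 above and 4 below all ClpP cKO libraries, 0.11 for 13 subunits of complexes II and III, and 0.09 for 18 of complex IV and cytochrome c. Mitochondrial ribosomal proteins had a median of 0.02, with 8 of 77 above and 3 below, both shares under those of all protein-coding genes. Mitochondrial chaperones and proteases had a median of 0.03, with 2 of 22 above and 4 below all ClpP cKO libraries. The lowest p-values of that list were those of 2 genes below. Clpb, a matrix disaggregase, stood at 27.4, 23.0 and 25.7 FPKM in ClpP cKO and 19.3, 13.5 and 13.9 in ClpX cKO (-0.69, adjusted p = 0.10). Mipep, a peptidase that trims imported proteins, had a difference of -0.41 (adjusted p = 0.11). On the other side Hspd1, the matrix chaperonin, stood at 33.8, 36.9 and 34.6 FPKM in ClpP cKO and 38.1, 41.5 and 51.9 in ClpX cKO (0.30, adjusted p = 0.13). Lonp1, the other ATP-driven protease of the matrix, stood at 14.6, 16.9 and 16.5 FPKM in ClpP cKO and 16.4, 20.0 and 20.6 in ClpX cKO (0.23, adjusted p = 0.16). Its groups overlapped through ClpX cKO 1.

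Single genes of mitochondrial gene expression lay on either side, and none was called with all libraries. Tfam, the factor that packs mitochondrial DNA and starts its transcription, stood at 14.5, 10.6 and 12.1 FPKM in ClpP cKO, 6.99, 5.99 and 6.80 in ClpX cKO and 28.3, 28.9 and 16.8 in the controls. Its difference was -0.81 (SE 0.20, adjusted p = 0.082, and 0.033 without ClpX cKO 1), while mitochondrial RNA lay higher in the same libraries. Nsun4, which methylates the small mitochondrial rRNA, stood at 29.7, 21.2 and 23.7 FPKM in ClpP cKO and 20.6, 11.99 and 12.6 in ClpX cKO (-0.71, adjusted p = 0.10). Noa1, a GTPase of mitochondrial ribosome assembly, stood at 3.58, 4.34 and 3.30 FPKM in ClpP cKO and 4.83, 6.18 and 5.66 in ClpX cKO (0.47, adjusted p = 0.089). The medians of the lists these belong to were 0.07 for mitochondrial DNA maintenance and transcription, 0.02 for RNA processing and 0.06 for translation and ribosome assembly factors. Tfam has testis transcripts that differ from the somatic one, which a level per gene does not separate.

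Haem synthesis is the pathway in which ClpX is known to act on its own, and 9 of 18 genes of haem synthesis and handling lay above all ClpP cKO libraries, with 1 below and a median of 0.18. None was called by limma with all libraries, 10 had an unadjusted p under 0.05, voom called 2 higher, and without ClpX cKO 1 the test called 8 higher and 1 lower. Alas1, the enzyme of the first step, stood at 25.8, 27.5 and 26.8 FPKM in ClpP cKO and 27.5, 20.3 and 29.6 in ClpX cKO, so the groups overlapped (-0.07, 95% interval -0.45 to 0.32). Enzymes of later steps were among those above. Alad, of the second step, stood at 21.1, 21.2 and 34.0 FPKM in ClpP cKO and 36.1, 42.7 and 48.2 in ClpX cKO (0.74, SE 0.21, adjusted p = 0.094). Fech, which inserts the iron, stood at 15.7, 14.6 and 14.9 FPKM in ClpP cKO and 16.7, 17.9 and 18.7 in ClpX cKO (0.23, adjusted p = 0.10). Iron-sulfur cluster genes, the other iron pathway of the matrix, had a median of -0.01 with 0 of 17 above and 2 below.

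None of the genes of amino acid supply and the stress response to its shortage was called by limma with all libraries. The integrated stress response, which the transcription factor ATF4 carries out when translation is held back, had 3 of 17 members above and 4 below, with a median of 0.12. Of these 17, 8 had an unadjusted p under 0.05 and voom called 0, and without ClpX cKO 1 the test called 6 higher and 1 lower, with a median of 0.16. Atf4 stood at 27.3, 26.3 and 26.3 FPKM in ClpP cKO and 26.1, 33.2 and 32.9 in ClpX cKO (0.19, adjusted p = 0.20, and 0.0094 without ClpX cKO 1), its groups overlapping through ClpX cKO 1. Of 20 cytosolic aminoacyl-tRNA synthetases, which charge tRNAs, 1 lay above and 4 below, with a median of -0.08. That median was 0.02 without ClpX cKO 1, with 1 member called higher and 0 lower. Mars stood at 65.3, 62.4 and 78.8 FPKM in ClpP cKO and 45.2, 71.7 and 64.9 in ClpX cKO, against 16.3 to 18.4 in the controls (-0.20, 95% interval -0.57 to 0.18). In this list ClpX cKO 1 lay below every ClpP cKO library, at a level of 0.24 against 0.43 to 0.55, while ClpX cKO 2 and 3 lay at 0.49 and 0.47. All 17 mitochondrial synthetases overlapped. Of 16 enzymes of serine, one-carbon, proline and asparagine metabolism 3 lay above and 1 below, with a median of 0.21. Of these, 5 were called higher and 0 lower without ClpX cKO 1, with a median of 0.30. The one below was Asns, asparagine synthetase, at 40.04, 29.9 and 38.2 FPKM in ClpP cKO and 25.4, 23.5 and 28.5 in ClpX cKO (-0.46, adjusted p = 0.13).

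Components of the mTORC1 pathway, which couples amino acids to growth and which the study's title names, had a median of 0.13, with 12 of 42 above (28.6%) and 5 below (11.9%). None was called by limma with all libraries, 13 had an unadjusted p under 0.05, voom called 2, and without ClpX cKO 1 the test called 14 higher and 1 lower. Those above included brakes as well as drivers. Sesn1 and Sesn2, leucine-sensing inhibitors of the pathway, had differences of 0.32 and 0.36. Sesn2 stood at 23.9, 25.2 and 27.8 FPKM in ClpP cKO and 28.0, 34.9 and 37.4 in ClpX cKO (adjusted p = 0.098). Castor2, of the arginine sensor family, had 0.40 and Tsc2, of the complex that switches the pathway off, 0.25. Lamtor2 and Lamtor4, of the lysosomal scaffold, had 0.36 and 0.46, and Rps6kb2, a kinase downstream, 0.30. Slc38a9, the lysosomal arginine sensor, lay below, at 6.43, 6.05 and 5.80 FPKM in ClpP cKO and 5.28, 4.67 and 4.25 in ClpX cKO (-0.31, adjusted p = 0.10). Mtor itself stood at 36.0, 54.3 and 55.6 FPKM in ClpP cKO and 55.8, 50.5 and 35.2 in ClpX cKO, so the groups overlapped (-0.04).

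Glycolysis genes lay on both sides. Of 23 genes 5 lay above and 8 below all ClpP cKO libraries, with a median of -0.22, 0 were called by limma with all libraries, 16 had an unadjusted p under 0.05, voom called 1 lower, and without ClpX cKO 1 the test called 3 higher and 11 lower. The 8 below were Gapdhs (-0.98), Pgk2 (-0.65), Ldhc (-0.36) and Eno4 (-0.37), forms known from germ cells, and Hk1 (-0.72), Gpi1 (-0.62), Pgam2 (-0.37) and Tpi1 (-0.32). Pgk2, the phosphoglycerate kinase of late germ cells, stood at 190, 168 and 172 FPKM in ClpP cKO and 152, 89.0 and 103 in ClpX cKO (adjusted p = 0.10). The 5 above were Pgk1 (0.29), Ldhb (0.49), Hk2 (0.34), Pgam1 (0.30) and Aldoc (0.40). Ldhb, a lactate dehydrogenase subunit, stood at 72.6, 93.3 and 90.9 FPKM in ClpP cKO and 98.5, 122 and 142 in ClpX cKO (adjusted p = 0.096). Citric acid cycle and fatty acid oxidation genes had a median of 0.12, with 9 of 30 above and 2 below, and 7 called higher and 2 lower without ClpX cKO 1.

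Genes of p53 targets and apoptosis had a median of 0.21, with 8 of 21 above and 0 below. None was called by limma with all libraries, 9 had an unadjusted p under 0.05, voom called 1, and without ClpX cKO 1 the test called 9 higher. Bax, which permeabilises the outer mitochondrial membrane, stood at 6.95, 7.38 and 6.61 FPKM in ClpP cKO, 9.94, 11.6 and 12.7 in ClpX cKO and 4.40 to 5.26 in the controls (0.63, SE 0.10, adjusted p = 0.079). Pmaip1, another promoter of this step, had 0.39 (adjusted p = 0.093). Interferon-stimulated genes had a median of 0.46, with 8 of 13 above and 0 below, and 8 called higher and 1 lower without ClpX cKO 1. None was called by limma with all libraries or by voom, and 10 had an unadjusted p under 0.05. Ifitm3, an antiviral membrane protein, stood at 7.69, 10.2 and 9.86 FPKM in ClpP cKO and 11.7, 21.7 and 20.0 in ClpX cKO, with 6.95 to 10.3 in the controls (0.84, SE 0.23, adjusted p = 0.089). Most of its difference lay in ClpX cKO 2 and 3, where ClpX cKO 1 was at 29.2%.

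X-linked protein-coding genes, which meiotic germ cells silence and supporting cells do not, lay above all ClpP cKO libraries in 203 of 526 cases (38.6%) and below in 35 (6.65%). On the autosomes the shares were 17.6% above and 13.9% below. The median was 0.22, 0 were called by limma with all libraries, 234 had an unadjusted p under 0.05, and voom called 47 higher and 3 lower. Without ClpX cKO 1 the test called 151 higher and 63 lower. The level of the list was 0.06, 0.09 and 0.07 in ClpP cKO and 0.18, 0.09 and 0.27 in ClpX cKO, so that by this mean ClpX cKO 2 lay within ClpP cKO. Pcsk1n, an inhibitor of a prohormone convertase, stood at 8.16, 13.1 and 12.8 FPKM in ClpP cKO and 22.8, 25.6 and 34.6 in ClpX cKO (1.22, SE 0.23, adjusted p = 0.081). Slc6a8, the creatine transporter, had a difference of 0.58. Sertoli genes lay higher in the same libraries, at the levels given above, and their part in the X-linked values was not tested. Of 9 Y-linked genes 5 lay above and 0 below, with a median of 0.20, for example Uba1y (0.28), a ubiquitin-activating enzyme of the germ line.

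The 10 largest increases and 10 largest decreases without ClpX cKO 1 were taken from the protein-coding genes whose groups did not overlap and that were not called with it. They were chosen by their values, and several are members of the lists above. Their ranking used the difference without ClpX cKO 1, while the values in brackets are from the fit with all libraries. Without ClpX cKO 1 the difference was, for example, -1.89 for Gm136 and 1.42 for Tnfrsf12a. Of 3915 protein-coding genes called without ClpX cKO 1, 2240 had non-overlapping groups over all 6 libraries. Over all tested protein-coding genes, 18.5% lay above and 13.6% below all ClpP cKO libraries. The ClpP cKO libraries and ClpX cKO 2 and 3 enter both the call and this count, so the selection itself raises it. Among the 10 largest decreases were Gm136, at 19.9, 14.2 and 16.7 FPKM in ClpP cKO and 5.16, 3.83 and 3.76 in ClpX cKO (-1.77, SE 0.25, adjusted p = 0.052), and Ubqlnl, a ubiquilin-like gene, at 37.0, 24.6 and 26.9 FPKM against 10.9, 7.06 and 7.45 (-1.69). Both stood higher still in the controls, as did Tnp2 and Prm2 from the same 10. Among the 10 largest increases were mt-Nd4l, mt-Nd3 and mt-Cytb, given above. Tnfrsf12a, the receptor of the cytokine TWEAK, stood at 3.12, 1.06 and 1.62 FPKM in ClpP cKO and 4.52, 5.74 and 7.43 in ClpX cKO (1.27, SE 0.34, adjusted p = 0.089). Pyroxd2, a pyridine nucleotide-disulphide oxidoreductase, stood at 0.95, 1.01 and 0.71 FPKM in ClpP cKO and at 1.24 in ClpX cKO 1 against 6.74 and 7.14 in ClpX cKO 2 and 3, with 0.34, 0.69 and 3.18 in the controls. Its value was thus high in 2 of 3 ClpX cKO libraries and in Control 3. Gstp1, a glutathione transferase, stood at 24.95, 23.2 and 17.7 FPKM in ClpP cKO and 28.9, 46.9 and 52.3 in ClpX cKO (0.90, SE 0.21, adjusted p = 0.081).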

How the data were processed

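RNA was measured in 9 libraries, 3 a group, grouped by their titles. The authors' deposited table holds FPKM for 54532 genes, and, per the file headers, a gene length in bases as another column. The submitters' processing notes name the builds GRCm38 and mm10, and the aligner and counter are not given in the sources used here. The products of FPKM and length were divided by a step fitted to each library and taken as 1 read. Over all libraries, 100% of the values above 0 were then whole numbers, with a tolerance of 0.01 read. This gave back the reads per gene. The authors' per-million denominator was 0.919 (control), 1.05 (ClpP cKO) and 1.07 (ClpX cKO) times the mean own total of gene reads, for a reason that is not stated. Ratios of knockout to control FPKM, such as those of Clpp and Clpx, depend on this scaling. Median-of-ratios factors of the deposited FPKM ranged from 0.995 (Control 3) to 1.01 (ClpP cKO 2). One linear model of log2(FPKM + 1) over all 9 libraries, with 6 residual degrees of freedom, was run in limma 3.58.1 (R 4.3.3, trended prior, two-sided). Single-library reads set the counting error, so genes with few reads are imprecise.

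The members compared and the 47 gene lists (11 of cell type markers, 36 of gene groups) were chosen with earlier results of these data known. Named were up to 12 called protein-coding genes each way, up to 3 called members of each list, Clpp and Clpx, and all mitochondrial mRNAs. Since few were called, other list members were added after their values were seen. Many had a small p, and others, such as Alas1, Mtor, Mars, Acrv1 and Atf4, did not. Mllt10, Akna and the genes largest without ClpX cKO 1 were also added in this way. Alternatives were other pseudocounts, filters, scalings, limma voom on recovered reads, a replicate block, and leaving out libraries. Same-numbered libraries of the 2 knockouts deviated together with r = 0.234, 0.173 and 0.020, and differently numbered ones with r from -0.237 to 0.113. What the numbers stand for is not stated, and these values do not settle whether they pair libraries. The main fit did not pair by them. The fit was also run on simulated reads with the same dispersion for every gene and no library set apart from its group. That run does not test the fit for libraries such as ClpX cKO 1. GENCODE transcripts (GRCm38) gave sequences and, searched with blastn, the nuclear copies. Python 3.11.15, pandas 2.3.3, numpy 2.4.6, scipy 1.17.1 and matplotlib 3.10.9 were used.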

Additional observations from a re-analysis of the deposited data

How the results depend on the processing

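The count of calls was the value that moved most. From 18 (8 higher, 10 lower) it went to 89 (18 higher, 71 lower) with only the 6 knockout libraries, 828 (421 and 407) by limma voom, 29 (18 lower) under quantile normalization, and 5149 (2177 and 2972) without Control 3 and ClpX cKO 1. With protein-coding genes only, 6 were lower. With the replicate block 1 was called, lower, 0 higher, and 5173 had an unadjusted p under 0.05. Leaving out 1 library gave 0 to 4758 calls by limma, 0 to 2060 higher and 0 to 2698 lower. The counts were 4758 without ClpX cKO 1, 445 without Control 3, 8 without Control 2, 7 without Control 1, 6 without ClpX cKO 3, 3 without ClpP cKO 2 and 1 without ClpX cKO 2. They were 0 without ClpP cKO 1 or ClpP cKO 3, where 3148 and 3677 genes had an unadjusted p under 0.05. Of the 18 calls, 16 were shared with the fit of 6 libraries, 17 with voom and with quantile normalization, 14 with a mean FPKM of at least 5, and 7 with no filter. None of the 18 turned its sign, and mt-Nd1 went to 0 under quantile normalization. The share of calls that were higher, 44.4%, was lower with 6 libraries (20.2%), quantile normalization (37.9%), pseudocount 0.1 (40%) and own gene reads (40.9%). It was higher with protein-coding genes only (60%), no filter (52.9%), voom (50.8%), median-of-ratios scaling (50%) and a robust prior (47.8%). List medians turned sign 21 times. In 5 of these the main median was further from 0 than 1 SD between libraries, and the other 16 were in 6 lists with medians within 1 SD of 0: mitochondrial ribosomal proteins, mitochondrial RNA processing, iron-sulfur cluster assembly, both kinds of aminoacyl-tRNA synthetases, and meiotic and mitotic division. Of the 5, early meiotic prophase went from -0.043 to 0.0072 under quantile normalization and 0.024 without Control 3 and ClpX cKO 1, and ranged from -0.061 to 0.024 with 1 library left out, the highest being without ClpX cKO 1. Mitochondrial translation and ribosome assembly factors ranged from -0.011, without ClpP cKO 1, to 0.0997. Cytosolic heat shock proteins went to 0.059 under quantile normalization. Beside these 5, 924 list medians stayed within 1 SD between libraries of the main value and 56 moved further. The cause was not tested. A list with no tested member under a setting has no value there.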
